A study of Mus musculus with 8 samples.

Results

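The genes described here encode the eukaryotic translation initiation factors, the proteins that bring the ribosome, the initiator tRNA and the mRNA together at a start codon. They were taken by symbol: every gene named Eif1 to Eif6 in the expression table, leaving out Eif4a3, which belongs to the exon junction complex, and entries marked as pseudogenes. The rule found 57 genes of 23284 in the table. It uses symbols only and no measured value, but the set was chosen with earlier results of these data known. Of these, 55 had a mean FPKM (fragments per kilobase of transcript, scaled to the mapped total) of 1 or more over all conditions and were tested; Eif4e1b (mean 0.207 FPKM) and Eif2c4 (0.335 FPKM) were not. The symbols Eif2c1 to Eif2c4 are older names of the 4 Argonaute genes Ago1 to Ago4, whose proteins carry small RNAs and are not initiation factors. They are given apart, which leaves 53 genes, 52 of them tested.

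RNA was measured in P19, an established mouse cell line from an embryonal carcinoma, a tumour of embryo-like stem cells. The knockdown arm received an siRNA against Upf3a, a factor of nonsense-mediated decay (NMD), and the control arm a control siRNA. Both arms were given actinomycin D, which blocks transcription, 24 h after transfection, and RNA was taken 0, 15, 105 and 225 min later. The 8 conditions are thus Upf3a knockdown at 4 times and control siRNA at the same 4 times, all in P19 cells. At 0 min neither arm had yet had any time of exposure to actinomycin D. The series lists 8 samples, 1 for each condition, and the deposited table holds 1 value per condition. Replicates therefore cannot be compared here, and n below counts time points. How many cultures a sample holds cannot be told from these values. The siRNA sequence is not stated, and an effect of the siRNA other than on Upf3a cannot be told apart from the knockdown.

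Initiation starts with the cap-binding protein eIF4E, the scaffold eIF4G and the helicase eIF4A, which load the mRNA. The small ribosomal subunit arrives with eIF3, eIF1, eIF1A and a complex of eIF2, GTP and the initiator tRNA, and scans to the start codon. There eIF5 and eIF5B release eIF2 and join the large subunit, and eIF2B recharges eIF2 with GTP, the step that stress kinases block by phosphorylating eIF2. NMD degrades mRNAs that carry a stop codon well upstream of an exon junction, and UPF3A and its paralog UPF3B bind the complexes that mark those junctions. Eif4a2 is linked to NMD through alternative exons, while its paralog Eif4a1 encodes the more abundant helicase in most cells.

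The Eif4a2 splice choices are shown as the 30 bases around each junction, since they decide whether a transcript carries an early stop codon. Eif4a2 lies on chromosome 16 from 23107444 to 23114136, plus strand (GENCODE vM21, GRCm38). GENCODE lists 25 transcripts for it: 6 protein coding, 3 annotated as NMD substrates, 15 with a retained intron and 1 processed transcript. In 1 NMD-annotated transcript an exon of 107 bases (23112351 to 23112457) is included and brings a TAG stop 7 bases after the junction, with 1 exon junction behind it. In another NMD-annotated transcript an exon of 140 bases (23109120 to 23109259) is skipped, which shifts the reading frame to a TGA stop 80 bases on, with 6 junctions behind it. All sequences are 5′ to 3′ on the plus strand, and capitals mark the early stop codon.
Coding form, exon of 107 bases not included: aaactatattcacagaattggcagaggggg
NMD form, exon of 107 bases included: aaactatattcacaggagtcgaTAGcggca
Coding form, exon of 140 bases present: tcccttgtattaaagggtatgatgtgattg
NMD form, exon of 140 bases skipped: tcccttgtattaaagatccaaaaggtaatt
NMD form, stop reached after skipping: acaaatgttcgaaaTGAaatgcagaagttg
The coding and NMD forms share the first 15 bases of each junction pair and part after them. The deposited table has 1 value per gene, so the forms cannot be separated and every Eif4a2 value below is a sum over them.

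The targeted gene checked the labels. Upf3a stood at 5.27, 4.52, 4.76 and 4.16 FPKM in knockdown cells at 0, 15, 105 and 225 min, against 13.6, 13.95, 13.999 and 15.0 FPKM in control cells, so the arms did not overlap and the knockdown mean was 33.1% of control. Its paralog Upf3b averaged 10.7 ± 2.44 FPKM in knockdown cells and 13.5 ± 3.34 FPKM in control cells (SD over 4 time points). It was lower in knockdown cells at all 4 times and called lower (-0.30 on the log2 scale, limma adjusted p = 0.0065), though not when scaled to ribosomal protein genes. All 8 markers of P19 cells were detected, with summed levels of 2550 to 4275 FPKM in knockdown cells and 2075 to 3438 FPKM in control cells, and 7 of the 8 were called higher in knockdown cells (5 without 15 min or without 105 min). Of 16 markers of other cell types, 6 reached a mean of 1 FPKM, none was called higher and 2 (Col1a2 and Tubb3) were called lower. Their summed levels were 64.5 to 97.7 FPKM in knockdown cells and 70.6 to 109 FPKM in control cells, and Hbb-b1 of blood was at 0 throughout. The arms therefore differ in P19 markers as well as in Upf3a, and the part of that difference in the results below was not tested. The FPKM of a condition summed to between 537437 and 923333 in knockdown cells and between 537350 and 880304 in control cells, higher at 225 min in both arms. The 57 genes together held 1.425% to 1.501% of that total in knockdown cells and 1.329% to 1.426% in control cells.

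A minority of the initiation factor genes were called different between the arms, more of them higher than lower in knockdown cells, mostly by modest amounts. The arm difference was the mean of log2(FPKM + 1) in knockdown cells minus control cells at matched times, tested with limma over 11452 genes at a Benjamini-Hochberg adjusted p below 0.05. This scale understates the change of low genes. Among the 55 genes 16 (29.1%) were called higher and 4 (7.27%) lower in knockdown cells, 36.4% in either direction. The shares of the 11452 genes were 26.1% higher, 22.3% lower and 48.4% in either direction. The share called higher was thus near that of all genes and the share called lower was smaller. In bulk RNA fewer cells of a type and less RNA per cell cannot be told apart. The median difference was 0.077 over the 55 genes and 0.0046 over all genes. By time, the median over the 55 genes was 0.027 at 0 min, 0.10 at 15 min, 0.048 at 105 min and 0.16 at 225 min, while the median over all genes stayed between -0.0083 and 0.022. Without the Argonaute genes 16 were called higher and 3 lower. Each condition has 1 value, so the residual spread is that between time points. A call thus says that the 4 time points gave like differences, not that replicate samples did. Why so many of all genes were called was not tested.

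Descriptions that use no fitted spread gave other counts. In 24 of the 55 genes (43.6%) the knockdown value was the higher at all 4 times and in 6 (10.9%) the lower, against 31.8% and 28.6% of all genes, and 8 of the 24 were not called. In 9 genes (16.4%) even the lowest knockdown FPKM lay above the highest control FPKM, against 8.36% of all genes: Eif4a2, Eif2b3, Eif2b4, Eif3j, Eif3g, Eif5b, Eif2s1, Eif6 and Eif2ak2. No gene had all its control values above its knockdown values, against 5.39% of all genes. The deposited lower limit of the knockdown value exceeded the upper limit of the control value at all 4 times in none of the 55 genes (0.288% of all genes). It did so at 1 time or more in 1 gene, Eif2b3 at 225 min (2.05% of all genes), and in the other direction in none (0.908% of all genes). Of the 20 called genes, 13 kept the call under every one of the 12 alternatives that tested them. The others were Eif2s3x, Eif2b1, Eif4h, Eif2ak2, Eif3b, Eif1ad and Eif4e2, all with differences below 0.20 in size, which lost it in 1 to 7 of them. Scaled to ribosomal protein genes, 26 of the 55 genes were called higher and 3 lower, against 34.3% and 11.3% of all genes, and the median of all genes moved to 0.080. With quantile scaling the median of the 55 genes was 0.015, against -0.021 over all genes. Then 29 of the 55 genes lay above the median of all genes, against 38 on the deposited values.

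**Figure D1:**
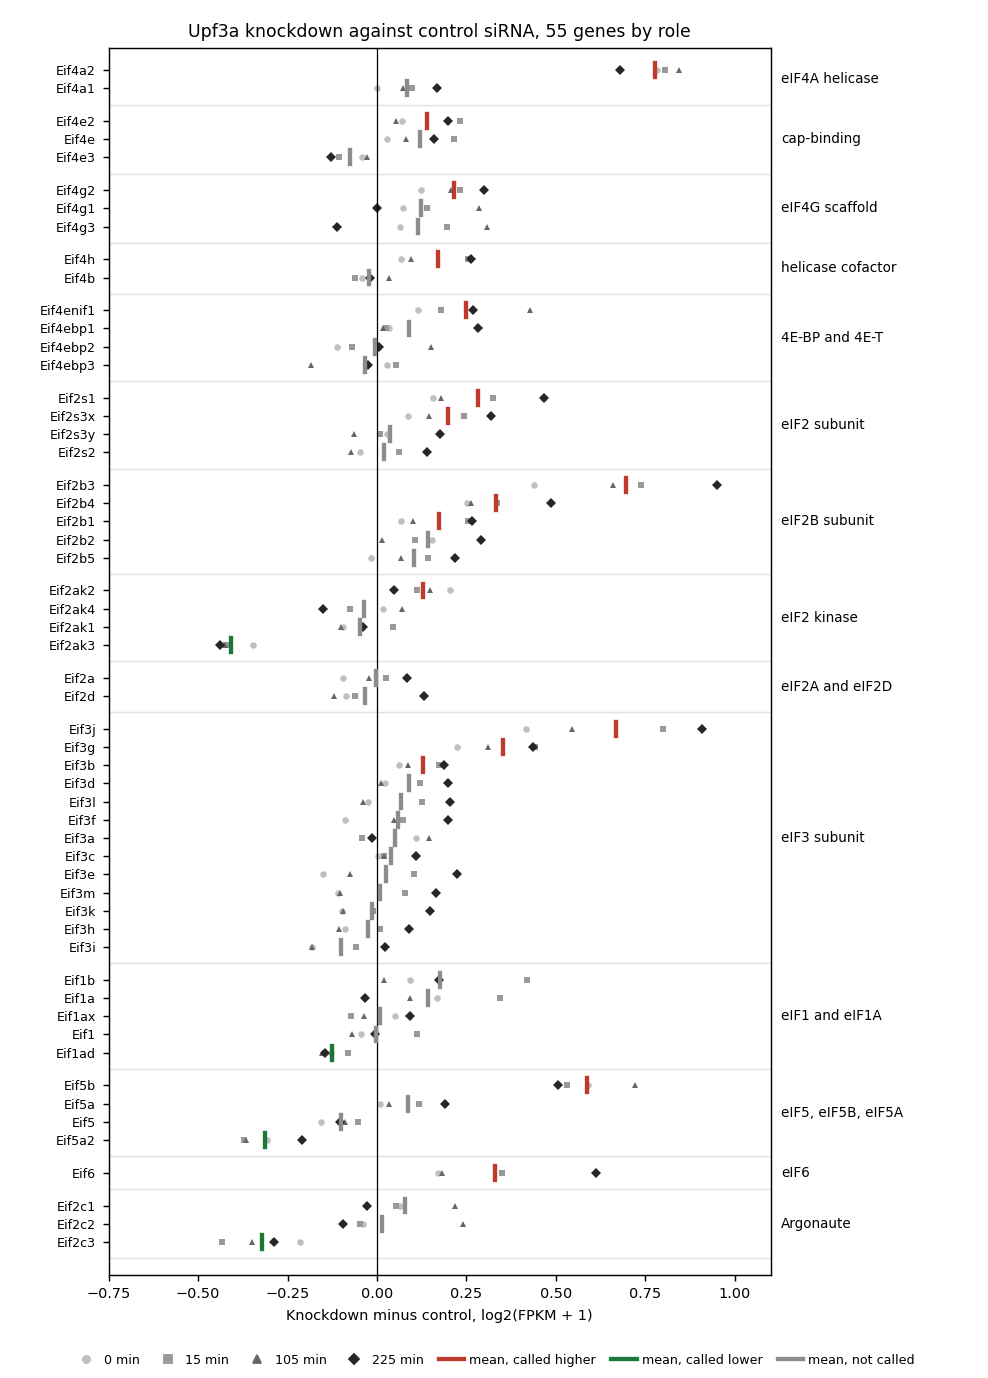
Difference in log2(FPKM + 1), Upf3a knockdown minus control siRNA, for the 55 tested genes in rows grouped by role; symbols are the 4 time points and the vertical bar is their mean, red where called higher, green where called lower and grey where not called. Eif4a2 (0.78), Eif2b3 (0.70), Eif3j (0.67) and Eif5b (0.59) lie farthest to the right with no time point near 0, and Eif2ak3 (-0.41) farthest to the left.

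The largest difference among the 55 genes was that of Eif4a2, which encodes 1 of the 2 eIF4A helicases, the motors that unwind the mRNA near its cap. Eif4a2 stood at 84.7, 75.3, 64.8 and 71.7 FPKM in knockdown cells at 0, 15, 105 and 225 min, against 48.8, 42.7, 35.6 and 44.4 FPKM in control cells. Every knockdown value lay above every control value. The knockdown mean was 173% of control, with a difference of 0.78 (SE 0.045, limma adjusted p = 5.64e-05) that kept its call in all 12 alternatives (0.72 to 0.86). The deposited limits were wide: at 0 min they ran from 60.1 to 109 FPKM in knockdown cells and from 32.1 to 65.5 FPKM in control cells, and they overlapped at all 4 times. Eif4a1 (chromosome 11, 69666936 to 69672423, minus strand) stood at 1170.0, 1188, 1409 and 1886 FPKM in knockdown cells, against 1169, 1111, 1340.2 and 1678 FPKM in control cells. Its arms overlapped, and its difference of 0.085 (SE 0.045) was not called (limma adjusted p = 0.155). It was called at 0.13 with quantile scaling and at 0.17 when scaled to ribosomal protein genes, and not in the other 10 alternatives.

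The 2 helicases can also be compared within a condition, which does not depend on scaling between conditions. Eif4a2 made up 6.75%, 5.96%, 4.40% and 3.66% of the summed FPKM of the pair in knockdown cells at 0, 15, 105 and 225 min, against 4.01%, 3.70%, 2.59% and 2.58% in control cells. The share was higher in knockdown cells at each time and declined over the time course in both arms. The log2 ratio of Eif4a2 to Eif4a1 was higher by 0.69 ± 0.13 (SD, n = 4 time points) in knockdown cells, with an exact two-sided sign-flip permutation p of 0.125, the smallest that 4 pairs allow. These stretches were taken from 1 main transcript per gene. No stretch of 36 bases of the main Eif4a2 transcript occurs in the Eif4a1 transcripts, so reads of that length from it do not confuse the 2 genes. Other Eif4a2 transcripts were not covered. Of the 36-base stretches of Eif4a1, 67.2% occur in another gene, mainly the pseudogene Eif4a-ps4, and 18.7% of those of Eif4a2 do. The exons of Eif4a2 overlap those of Rfc4 on the opposite strand, its span holds Snord2 and Snora81, and the table gives all 4 genes 1 locus. Whether the libraries kept strand is not stated. Rfc4 averaged 41.7 ± 6.68 FPKM in knockdown cells and 51.9 ± 6.11 FPKM in control cells (SD over 4 time points), the opposite direction to Eif4a2.

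**Figure D2:**
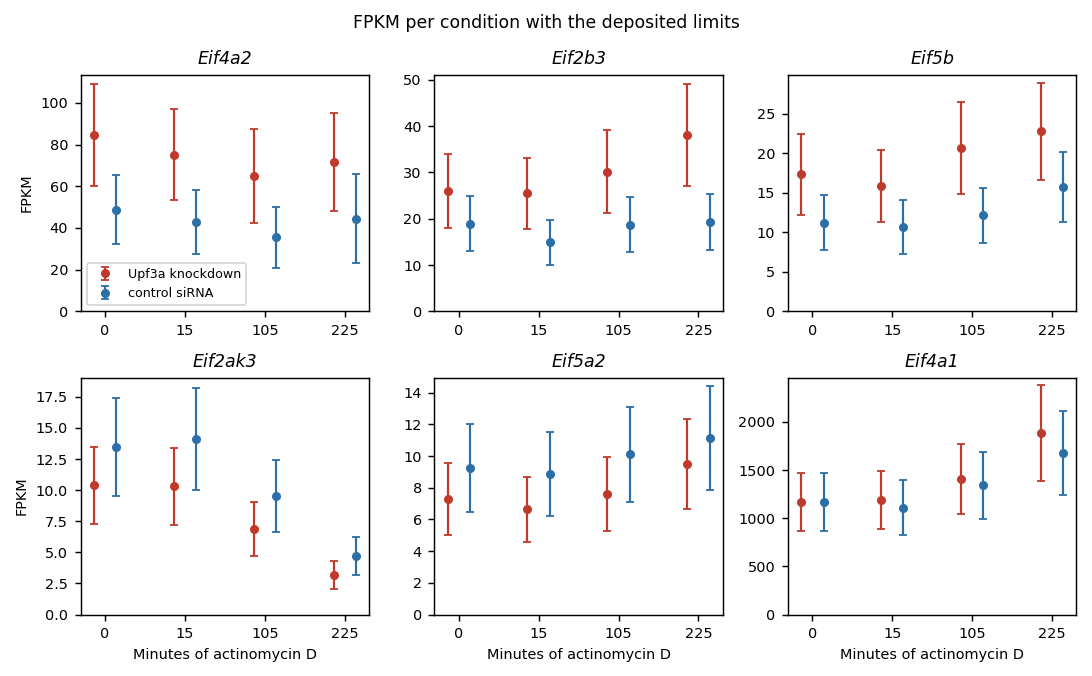
FPKM (linear axis from 0) of 6 genes at 0, 15, 105 and 225 min of actinomycin D, Upf3a knockdown in red left of control siRNA in blue; points are the deposited values and bars the deposited lower and upper limits, whose level is not stated. Eif4a2, Eif2b3 and Eif5b were higher and Eif2ak3 and Eif5a2 lower in knockdown cells at every time, and the limits of the arms were apart for Eif2b3 at 225 min only.

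**Figure D3:**
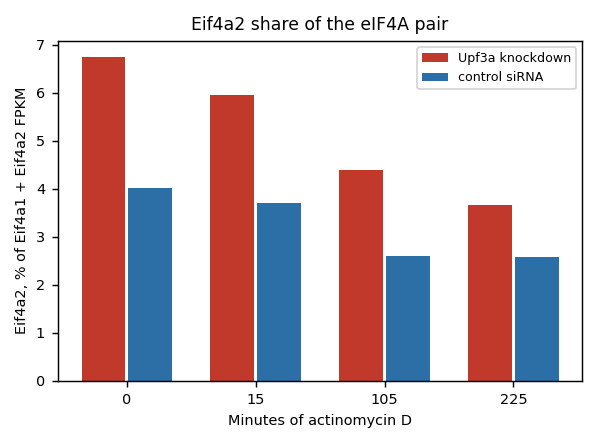
Share of Eif4a2 in the summed FPKM of Eif4a1 and Eif4a2, in percent, at each time of actinomycin D, with Upf3a knockdown in red left of control siRNA in blue. The knockdown bars run from 6.75% at 0 min to 3.66% at 225 min, each above its control bar (4.01% at 0 min and 2.58% at 225 min).

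Of the other cap-side genes few were called. Among the cap-binding genes Eif4e (0.12) and Eif4e3 (-0.076) were not called and Eif4e2, whose protein binds caps but is mostly known as a repressor, was called higher at 0.14, a call that 7 of the 12 alternatives did not keep. Of the 3 scaffolds Eif4g2, which encodes a scaffold lacking the eIF4E-binding site, was called higher at 0.22 (SE 0.045, limma adjusted p = 0.00677), with 202, 195, 228 and 292 FPKM in knockdown cells and 186, 165, 197 and 237 FPKM in control cells. Those ranges overlap, although the knockdown value was the higher at each time. Eif4g1 (0.12) and Eif4g3 (0.11) were not called. Of the cofactors that stimulate eIF4A, Eif4h was called higher at 0.17, which quantile scaling and leaving out 15 min or 225 min ended, and Eif4b (-0.022) was not called.

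None of the genes for the 4E-BPs, small proteins that mTOR phosphorylation releases from eIF4E, was called. Eif4ebp1 was at 0.089, Eif4ebp2 at -0.0058 and Eif4ebp3 at -0.033. Eif4enif1, which encodes the eIF4E transporter 4E-T of P-bodies, was called higher at 0.25 (SE 0.058, limma adjusted p = 0.0109). It stood at 42.9, 41.5, 43.3 and 25.8 FPKM in knockdown cells, against 39.5, 36.5, 31.9 and 21.3 FPKM in control cells. The knockdown value was higher at each time, with overlapping ranges, and the table places Eif4enif1 in a locus with 8 other genes.

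In the eIF2 branch the genes of the exchange factor eIF2B lay on 1 side. All 5 subunit genes had positive differences, 3 were called higher and none lower, and the median was 0.17. Over all genes 26.1% were called higher and 22.3% lower. This and the other role groups hold too few genes to be compared with those shares. All 5 also lay above the median of all genes under median-of-ratios, quantile and ribosomal protein scaling, with 3, 2 and 5 of the 5 called. Eif2b3, which encodes the gamma subunit (chromosome 4, 117019402 to 117087306, plus strand), stood at 26.0, 25.5, 30.1 and 38.1 FPKM in knockdown cells, against 18.9, 14.9, 18.7 and 19.2 FPKM in control cells. The arms did not overlap, the knockdown mean was 167% of control and the difference was 0.70 (SE 0.078, limma adjusted p = 0.000473). Eif2b4, the delta subunit (chromosome 5, 31187558 to 31193430, minus strand), stood at 34.3, 34.5, 39.1 and 40.3 FPKM in knockdown cells, against 28.6, 27.1, 32.4 and 28.5 FPKM in control cells. It did not overlap either, at 127% of control and a difference of 0.33 (SE 0.052, limma adjusted p = 0.00188). Its exons overlap those of Snx17 on the opposite strand. Eif2b1 (0.17) was called higher, but not without 15 min, without 225 min or with quantile scaling. Eif2b2 (0.14) and Eif2b5, the catalytic subunit (0.10), were not called.

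All 4 eIF2 subunit genes had positive differences, with a median of 0.12, and 2 were called higher. With quantile scaling the other 2 lay below the median of all genes. Eif2s1, which encodes the alpha subunit that stress kinases phosphorylate, stood at 59.4, 59.6, 61.7 and 75.2 FPKM in knockdown cells, against 53.2, 47.5, 54.4 and 54.1 FPKM in control cells. The arms did not overlap and the difference was 0.28 (SE 0.060, limma adjusted p = 0.00745). Eif2s3x, the X-linked gamma subunit gene, was called higher at 0.20 (not without 15 min), while its Y-linked copy Eif2s3y (0.036) and the beta subunit gene Eif2s2 (0.020) were not called. The X-linked copy made up 88.6% to 90.3% of the pair's FPKM in knockdown cells and 87.9% to 89.0% in control cells. Its values are uncertain, because 36.5% of the 36-base stretches of Eif2s3x occur in another gene, mainly Gm2223, against 0% of those of Eif2s3y. Eif2a (-0.0025) and Eif2d (-0.035), which encode factors for alternative delivery of the initiator tRNA, were not called.

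Of the 4 eIF2 kinase genes 1 was called higher and 1 lower. Eif2ak3, which encodes PERK, the kinase that senses unfolded proteins in the endoplasmic reticulum (chromosome 6, 70844515 to 70905245, plus strand), stood at 10.4, 10.3, 6.86 and 3.20 FPKM in knockdown cells, against 13.5, 14.1, 9.56 and 4.69 FPKM in control cells. The knockdown value was the lower at every time, although the ranges over time overlap since both arms fell. The knockdown mean was 73.5% of control and the difference was -0.41 (SE 0.041, limma adjusted p = 0.000319), kept in all 12 alternatives (-0.46 to -0.28). Eif2ak2, which encodes the double-stranded RNA sensor PKR, was called higher at 0.13 with 2.53 to 3.03 FPKM in knockdown cells and 2.24 to 2.50 FPKM in control cells, a call that 5 of 11 alternatives did not keep. Eif2ak1 (HRI, -0.047) and Eif2ak4 (GCN2, -0.036) were not called.

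The eIF3 complex, the largest initiation factor and the platform on the small subunit, showed little difference between arms outside a few subunits. Of its 13 genes 3 were called higher and none lower, with a median of 0.049. With quantile scaling 2 were called higher and 1 lower and the median was -0.024, so no direction is given for the complex. Eif3g, an RNA-binding subunit (chromosome 9, 20894349 to 20898623, minus strand), stood at 130.3, 138, 151 and 167 FPKM in knockdown cells, against 112, 101, 122 and 124 FPKM in control cells. The arms did not overlap, and the difference was 0.35 (SE 0.051, limma adjusted p = 0.00144). Eif3j, a loosely attached subunit (chromosome 2, 122028546 to 122056598, plus strand), stood at 33.1, 35.7, 29.0 and 31.5 FPKM in knockdown cells, against 24.5, 20.1, 19.5 and 16.3 FPKM in control cells. Its arms did not overlap and the difference was 0.67 (SE 0.082, limma adjusted p = 0.000705). The value is uncertain, because 40.6% of its 36-base stretches occur in its near copy Eif3j2, which the table lists in the same locus under the older name Gm9781. That copy had 11.1, 6.51, 17.2 and 24.6 FPKM in knockdown cells, against 7.36, 8.37, 12.04 and 19.3 FPKM in control cells, with no call (limma adjusted p = 0.145). Eif3b was called at 0.13, which 6 of the 12 alternatives did not keep. The other 10 subunits ranged from -0.10 for Eif3i to 0.088 for Eif3d, and none was called.

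The genes for start site selection, subunit joining and ribosome release moved singly. Eif5b, the GTPase that joins the subunits (chromosome 1, 37998010 to 38055579, plus strand), stood at 17.4, 15.9, 20.7 and 22.8 FPKM in knockdown cells, against 11.2, 10.7, 12.2 and 15.7 FPKM in control cells. Its arms did not overlap, its mean was 154% of control and the difference was 0.59 (SE 0.050, limma adjusted p = 0.000176). Rev1, which lies opposite it and shares its locus in the table, averaged 6.01 ± 2.80 FPKM in knockdown cells and 6.31 ± 2.82 FPKM in control cells. Eif6, which keeps the large subunit from joining too early (chromosome 2, 155819832 to 155826925, minus strand), stood at 118, 119, 129.6 and 134 FPKM in knockdown cells, against 105, 93.3, 114 and 87.5 FPKM in control cells. The arms did not overlap and the difference was 0.33 (SE 0.077, limma adjusted p = 0.0106).

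Eif5a2, a minor copy of the gene for the hypusine-carrying factor eIF5A (chromosome 3, 28781276 to 28798846, plus strand), stood at 7.28, 6.63, 7.62 and 9.53 FPKM in knockdown cells, against 9.25, 8.88, 10.1 and 11.2 FPKM in control cells. The knockdown value was the lower at each time, with overlapping ranges, and the difference was -0.31 (SE 0.046, limma adjusted p = 0.00144). The main copy Eif5a, with a mean of 2116 FPKM the most abundant of the 57 genes, was not called (0.087). Eif5a2 made up 0.289% to 0.444% of the pair's FPKM in knockdown cells and 0.386% to 0.583% in control cells. Eif5, which activates GTP hydrolysis by eIF2, was at -0.10 and not called. Of the 5 genes of the eIF1 and eIF1A group, Eif1ad, which encodes a protein with an eIF1A-like domain (chromosome 19, 5366741 to 5371526, plus strand), was called lower at -0.13 (SE 0.040, limma adjusted p = 0.034). It had 31.6, 31.8, 30.4 and 26.1 FPKM in knockdown cells, against 34.6, 33.7, 33.9 and 28.9 FPKM in control cells, and 6 of 12 alternatives, all 4 time points left out in turn among them, did not keep the call. Eif1 (-0.0016), Eif1a (0.14), Eif1ax (0.0086) and Eif1b (0.18) were not called.

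Of the Argonaute genes under the older Eif2c symbols, Eif2c3 (Ago3, chromosome 4, 126331704 to 126429556, minus strand) was called lower. It stood at 3.23, 2.58, 2.03 and 2.06 FPKM in knockdown cells, against 3.91, 3.84, 2.86 and 2.73 FPKM in control cells, a difference of -0.32 (SE 0.049, limma adjusted p = 0.00169). The knockdown value was lower at each time, with overlapping ranges. Eif2c1 (Ago1, 0.077) and Eif2c2 (Ago2, which encodes the slicer, 0.015) were not called.

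Genes that act with the initiation factors gave the setting. Over 5 lists with 69 tested genes in all, 18 were called higher and 14 lower in knockdown cells, shares near the 26.1% and 22.3% of all genes, with a median difference of 0.0035, against 0.0046 over all genes. Of 20 cofactors and poly(A)-binding proteins 6 were called higher and 1 lower. With quantile scaling it was 5 higher and 4 lower, and the count called lower was 1 or 2 in the other alternatives. Cyfip1, whose protein binds eIF4E, was at 0.48, the helicase gene Dhx29 at 0.39 and Paip1, whose protein links eIF4A to the poly(A)-binding protein, at 0.38. Paip2b, whose protein removes the poly(A)-binding protein from mRNA, was at -0.33. Of 17 elongation and termination genes 6 were called higher and 3 lower. The 3 fell to 1 without 0, 15 or 225 min and with median-of-ratios scaling, and to 0 without 105 min, with a pseudocount of 0.1 and with ribosomal protein scaling. Dph1 and Dph5, which make the diphthamide of elongation factor eEF2, were at 0.86 and 0.54, and the release factor gene Gspt1 at 0.37. The ribosome rescue gene Pelo was at -0.32, a call that 5 of 12 alternatives ended, those without 105 min and without 225 min included.

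Of 12 genes of the integrated stress response, the program that eIF2 phosphorylation sets off, 2 were called higher and 5 lower. With ribosomal protein scaling it was 3 higher and 2 lower, and with median-of-ratios scaling or without 0, 15 or 105 min it was 2 higher and 3 lower. Sesn2, which encodes a sestrin, was at 0.46 and Atf4, the transcription factor translated when eIF2 is phosphorylated, at 0.28. Atf4 had 129, 124, 104 and 64.4 FPKM in knockdown cells, against 115, 99.4, 82.6 and 50.7 FPKM in control cells. Chac1 (-0.34), an ATF4 target, and Ppp1r15a (-0.26), whose protein guides the phosphatase back to eIF2, were called lower. The listed genes thus did not share a direction. Of 17 genes of the mTOR and 4E-BP axis 3 were called higher and 4 lower. Without 15 min it was 1 higher and 2 lower, without 105 min or with quantile scaling 2 were called higher, and with ribosomal protein scaling 1 was called lower. Only quantile scaling kept 4 called lower, and the count was 3 in the remaining alternatives. Rptor, a subunit of mTORC1, was at 0.39, and Mknk1, a kinase of eIF4E, at -0.37. Akt1s1, an mTORC1 inhibitor, was at -0.25 (not called when scaled to ribosomal protein genes). The mTORC1 inhibitor gene Ddit4 was at -0.42, but with 50.5 FPKM in control cells at 15 min against 12.8 to 20.6 FPKM at the other times. That call was lost in 8 of 12 alternatives, those without 15 min and without 225 min among them. Of 3 mitochondrial initiation genes Mtif2 was called higher (0.20) and Mtif3 lower (-0.15, lost in 4 of 11 alternatives, among them those without 15, 105 or 225 min).

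Over the time course some initiation factor mRNAs were falling under every scaling, and the direction of most others depended on the scaling. The slope is the change of log2(FPKM + 1) per hour over both arms. FPKM has no outside standard, so a slope is relative to the bulk of the RNA measured, and residual transcription was not measured. On the deposited FPKM 36 of the 55 genes (65.5%) were called rising and 11 (20.0%) falling by limma, against 42.7% and 38.6% of all genes, with a median slope of 0.099 over the 55 genes and 0.014 over all genes. These counts depend on the scaling: with quantile scaling 16 were rising and 26 falling, and scaled to ribosomal protein genes none was rising and 52 were falling. The median of all genes moved to 0.032 with quantile scaling and to -0.23 with ribosomal protein scaling. Relative to it, the median of the 55 genes lay 0.084 above on the deposited values, 0.049 above when scaled to ribosomal protein genes and 0.045 below with quantile scaling. Of the 55 genes, 37 lay above the median of all genes on the deposited values, 36 with ribosomal protein scaling and 17 with quantile scaling. The sign of the offset thus depended on the scaling.

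**Figure D4:**
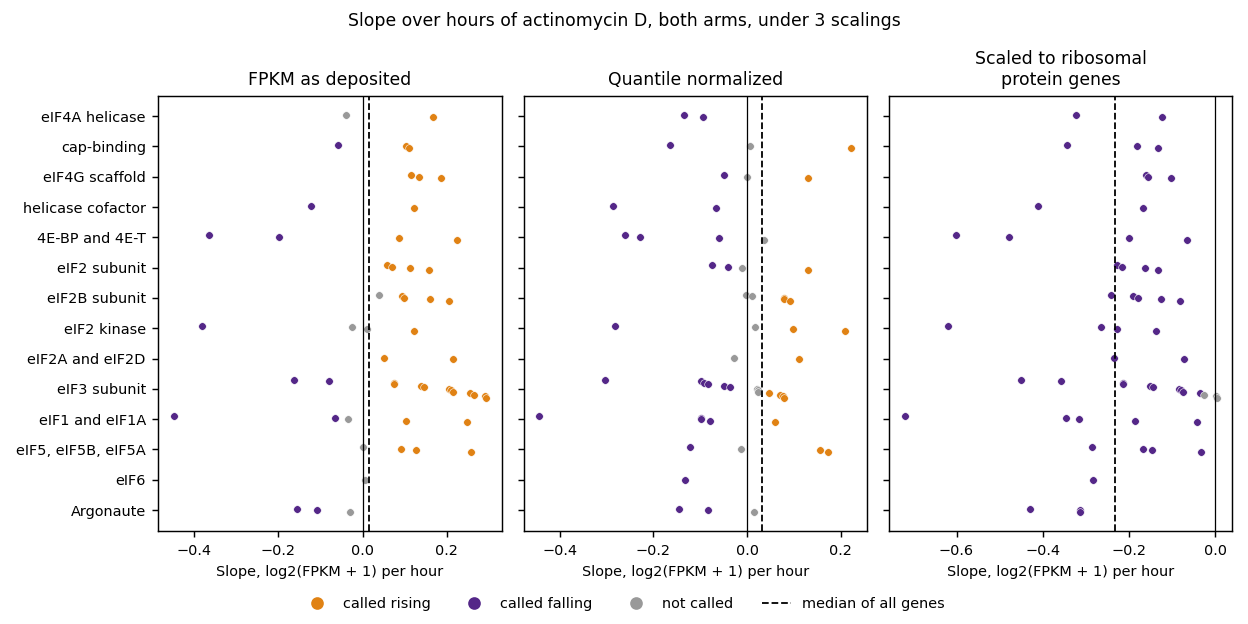
Slope of log2(FPKM + 1) per hour of actinomycin D over both arms, each point 1 of the 55 tested genes in rows by role, in 3 panels for the deposited FPKM, quantile scaling and scaling to ribosomal protein genes; orange points were called rising, purple falling, and the dashed line is the median of all genes. Eif1a lies farthest to the left in all 3 panels, while the eIF3 points lie right of the dashed line in the outer panels (11 of 13) and on both sides of it with quantile scaling (4 of 13 to the right).

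The 4 genes with the steepest loss on the deposited values, Eif1a, Eif2ak3, Eif4ebp3 and Eif4enif1, were falling under every scaling. With quantile scaling Eif3a (-0.30) and Eif4b (-0.29) fell more steeply than all of them but Eif1a. Eif1a, which encodes the scanning factor eIF1A (chromosome 18), had 44.6, 44.5, 27.5 and 12.2 FPKM in knockdown cells and 39.6, 34.8, 25.8 and 12.5 FPKM in control cells at the 4 times. At 225 min 27.3% of the starting FPKM was left in knockdown cells and 31.5% in control cells, and the slope was -0.45 per hour (SE 0.025, limma adjusted p = 2e-06). Its X-linked copy Eif1ax went the other way on the deposited values, to 342 FPKM at 225 min in knockdown cells and 320.4 FPKM in control cells, so that Eif1ax made up 80.0% of the pair at 0 min and 96.6% at 225 min in knockdown cells, and 81.3% and 96.2% in control cells. Eif2ak3 kept 30.8% of its FPKM in knockdown cells and 34.8% in control cells, with a slope of -0.38. Eif4ebp3 (chromosome 18) had 11.03, 10.7, 7.02 and 3.58 FPKM in knockdown cells and 10.8, 10.3, 8.12 and 3.65 FPKM in control cells, a slope of -0.36. Of its 36-base stretches 66.1% occur in an overlapping gene on the same strand, which makes the value uncertain. Eif4enif1 had a slope of -0.20, which rests on the last time point: without 225 min it was -0.069 and not called. The other falling genes were Eif3a, Eif2c1, Eif4b, Eif2c3, Eif3j, Eif1ad and Eif4e, with slopes from -0.16 to -0.058. Of these, Eif3a, Eif2c1, Eif4b, Eif1ad and Eif4e were also called falling under every scaling. Eif3j was not called with median-of-ratios scaling (-0.065), and Eif2c3 was not called with quantile scaling (0.016).

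The steepest rising genes on the deposited values were 3 eIF3 subunits and Eif5a. Eif3i had 260.3, 272, 366 and 587 FPKM in knockdown cells and 295, 284, 415 and 579 FPKM in control cells (slope 0.29). Eif3k had 283, 290.1, 403 and 642 FPKM in knockdown cells and 303, 293, 431 and 579 FPKM in control cells (slope 0.29). Both encode small subunits of the complex. Eif3f had 178, 190.1, 275 and 382 FPKM in knockdown cells and 189, 181, 266 and 332 FPKM in control cells (slope 0.26). Eif5a had 1633, 1643, 2197 and 3286 FPKM in knockdown cells and 1623, 1515, 2145 and 2883 FPKM in control cells (slope 0.26). Scaled to ribosomal protein genes, Eif3i and Eif3k were at 0.0034 and 0.0017 and not called, Eif3f was at -0.025 and Eif5a at -0.032. On that scale the median of all genes fell by 0.23 per hour. Within eIF3 the subunits did not move as 1 unit: 11 of 13 were rising on the deposited values, but Eif3a (-0.16), the scaffold subunit, and Eif3j (-0.079) were falling, a split that ribosomal protein scaling kept relative to the median of all genes. With quantile scaling 4 of the 13 were rising and 6 falling. Eif4a2 was not called (-0.039). It was called falling without 225 min (-0.21), with quantile scaling (-0.13) and with ribosomal protein scaling (-0.32), and its slope was 0.0044 without 0 min. Eif4a1 was rising at 0.17 on the deposited values and falling under quantile scaling (-0.094) and ribosomal protein scaling (-0.12).

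Whether the knockdown changed the rate of loss was asked with the difference between the slopes of the arms, knockdown minus control. By limma none of the 55 genes was called, nor in any of the 12 alternatives, and 1 of all 11452 genes was (0.00873%). At an unadjusted p below 0.05 there was 1 of the 55 genes (1.82%), against 6.65% of all genes. With a trended and robust variance the counts were 0 adjusted and 3 unadjusted. The differences ranged from -0.079 for Eif1a to 0.10 for Eif2b3 per hour, with a median of 0.029 over the 55 genes and 0.0033 over all genes. For Eif2b3 the slope was 0.15 per hour in knockdown cells and 0.048 in control cells, a difference of 0.10 (SE 0.039, limma adjusted p = 0.725). For Eif6 it was 0.050 in knockdown cells and -0.041 in control cells, a difference of 0.091 (SE 0.041, limma adjusted p = 0.746) that became -0.034 without 225 min. For Eif4a2 the slope was -0.052 in knockdown cells and -0.025 in control cells, a difference of -0.028 (SE 0.030, limma adjusted p = 0.838). Its higher level in knockdown cells was thus there at 0 min, before transcription had been blocked for any time, and no change in its rate of loss was detected. With 2 residual degrees of freedom a difference of this size was not detectable.

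The annotation was compared with these values as a description. In GENCODE 11 of the 55 genes (20.0%) have a transcript annotated as an NMD substrate, against 29.0% of the tested genes matched by symbol. Of those 11 genes 3 (27.3%) were called higher in knockdown cells, Eif4a2, Eif6 and Eif2b1, and none lower. Of the 44 without such a transcript 13 (29.5%) were called higher and 4 (9.09%) lower. Over all matched genes the shares called higher were 27.3% with and 25.8% without such a transcript. The shares called lower were 20.8% with and 22.7% without it. Eif2b3, Eif3j, Eif5b, Eif3g and Eif2b4 are among the genes with none.

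The 11 falling genes had a median 3′ UTR of 1441 bases and the 36 rising genes of 540 bases, against 1033 bases over the tested genes with a match. The pentamer ATTTA, searched on the transcript strand and often found in short-lived mRNAs, occurred in the 3′ UTR of 8 of the 11 falling genes (72.7%) and 21 of the 36 rising genes (58.3%), against 67.3% of all. It was absent from that of Eif1a, Eif4ebp3 and Eif4enif1, 3 of the 4 genes with the steepest loss on the deposited values, and present in that of Eif3a and Eif4b. Spearman's rho between 3′ UTR length and slope on the deposited values was -0.295 across the 55 genes and -0.351 across 11003 tested genes. Between 3′ UTR length and the arm difference it was 0.0037 across the 55 genes. These correlations are over genes that share the same 8 conditions, and genes are not independent replicates.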

How the data were processed

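RNA of P19 cells was sequenced in 8 conditions, 2 siRNA arms at 4 times after actinomycin D. The authors' deposited table gives FPKM per gene and condition with a lower and an upper limit, per the file headers. The submitters' processing notes name TopHat2, Cufflinks and the build mm10, with no version of either tool. The series lists 8 samples for these 8 conditions. How many cultures a sample holds cannot be told from these values. The level of the limits and whether libraries kept strand are not stated. FPKM is not a count, so the depth is unknown and no counting interval is given.

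Conditions were matched to columns by arm and time. The 11452 genes whose FPKM averaged at least 1 were put on the scale log2(FPKM + 1) and fitted with limma 3.58.1 in R 4.3.3, eBayes without trend, Benjamini-Hochberg threshold 0.05. The arm difference had time point as a factor (3 residual degrees of freedom), the difference in rate added arm by hours (2) and the slope used hours with arm as a term (5). Residuals are disagreement between time points, so p-values cover that spread only. The fits were tested on simulated data. The alternatives were pseudocounts of 0.1 and 5, no filter or a mean FPKM of 5, median-of-ratios, quantile and ribosomal protein scaling (85 genes), trended robust eBayes and leaving out each time point.

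The genes, their roles, the partner lists and the rule for named genes were chosen with earlier results of these data known, so a known difference such as that of Eif4a2 is no independent evidence. Values per condition are given for Eif4a2 and Eif4a1, for up to 6 called genes each way with 1 sign at all 4 times, for the 4 steepest slopes each way and the 2 largest rate differences at a mean FPKM of 5 or more, and for up to 4 called genes per list by size. Eif4g2, Eif4enif1, Eif2s1 and Eif1ax lie outside that rule for the arm difference and were described after their values were seen. Symbols, splice forms, transcript lengths and 3′ UTRs came from GENCODE vM21 on GRCm38, the same assembly as mm10, and matched all 55 tested genes and 96.1% of those tested.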

Additional observations from a re-analysis of the deposited data

Results flagged for a closer look

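For 2 of the 55 genes the sign of the difference between arms was the same at 0 and 15 min and the opposite at 105 and 225 min. Eif4ebp2 had 101, 106, 132 and 133 FPKM in knockdown cells, against 109.7, 111, 119 and 132 FPKM in control cells, so the mean log2 ratio of knockdown to control was higher by 0.17 at the later times than at the earlier times. Eif4ebp3 had 11.03, 10.7, 7.02 and 3.58 FPKM in knockdown cells, against 10.8, 10.3, 8.12 and 3.65 FPKM in control cells, and its mean log2 ratio changed by -0.145. The change between early and late times was not tested for either gene, and limma called no difference between the slopes of the arms for either.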

How the results depend on the processing

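The count of initiation factor genes called higher was 26 when scaled to ribosomal protein genes and 10 to 14 when 1 time point was left out, lowest without 15 min; the count called lower was 3 to 6 in all 12 alternatives. Of the 20 called genes, 13 were called in every alternative. For the 20 called genes and Eif4a1, of 250 arm differences under an alternative 217 kept direction and side of the threshold, 31 fell short of it, 2 newly passed and 0 changed sign. The counts of rising and falling genes were 16 and 26 with quantile scaling and 0 and 52 with ribosomal protein scaling, and 28 to 36 and 8 to 11 when 1 time point was left out. With ribosomal protein scaling the median slope of all genes was itself -0.23. Slopes of other genes changed sign too; of the 10 followed by name, they did so for Eif5a (-0.013 with quantile scaling, -0.032 with ribosomal protein scaling), Eif4a1 (-0.094 and -0.12), Eif3f (-0.025 with ribosomal protein scaling) and Eif4a2 (0.0044 without 0 min, within -0.21 to 0.0044 when 1 time point was left out). The rate difference of Eif6 was -0.034 without 225 min and up to 0.12 without 15 min. The Eif4a2 to Eif4a1 log2 ratio difference was 0.66 to 0.75 with 1 time point left out and 0.64 to 0.71 with other pseudocounts. The cause of these changes was not tested. The arms were matched by time in the arm difference and the ratio test, and each condition has 1 value, so no replicate number could be used as a block. Depth is unknown, there is 1 sample per condition, and isoforms and overlapping genes share reads.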
